A study of Rattus norvegicus with 16 samples.

Results

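The change of DNA methylation between the neonatal and the adult amygdala was measured in offspring of dams on control diet, in 4 libraries of postnatal day 7 (P7) and 2 libraries of postnatal day 90 (P90). All animals were Long-Evans rats described by the study as female, and the assay was reduced representation bisulfite sequencing, which reads cytosines mainly in CpG-rich fragments. The dams of these animals ate control diet, the P90 animals were also weaned to it, and offspring of dams on high-fat diet, the other group of the series, do not enter here. The series has 16 libraries, and 2 further control libraries of P90, whose file names carry a sequencing lane, were left out. The labels do not say whether animals came from separate litters, so p-values speak of these libraries only. The amygdala was cut from frozen sections at different bregma levels at the 2 ages, so age and the part of the amygdala sampled cannot be told apart. A site here is a CpG cytosine on 1 strand with at least 10 reads in all 6 libraries. There were 638551 such sites of 3659991 listed in any of the 6 libraries, and 637529 of them lay on chromosomes 1 to 20 and X. Libraries held 22087054 to 42809109 reads, and the median number of reads at these sites was 21 to 39 per library.

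In mammals most CpGs outside CpG islands are methylated, and the islands at gene starts are mostly not. DNMT3A and DNMT3B add methyl groups to new positions, DNMT1 copies them after replication, and TET enzymes oxidize them. In the brain the first postnatal weeks are a time of neuronal maturation, growth of glia and myelination, so the mix of cells in a piece of tissue changes with age. These are bulk libraries, in which a change within a cell type and a change in the share of cell types cannot be told apart. The deposited files list no site without a methylated read, so levels near 0 are seen only in part, and 9776 sites with 10 reads in both P90 libraries were listed in no P7 library, where 1457 sites with 10 reads in all 4 P7 libraries were listed in neither P90 library.

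One library stood apart from the others on the sex chromosomes. In female tissue CpG islands of the inactive X are methylated and those of the active X are not, which gives many X sites an intermediate level. The library labelled P7 replicate 2 had 12963 reads at X sites per 1000000 reads, where P7 replicates 1, 3 and 4 had 27970, 30267 and 30311 and P90 replicates 1 and 2 had 30351 and 29737. Reads listed on Y were 142 per 1000000 in P7 replicate 2 and 70.7 to 92.7 in the other 5 libraries. At 2210 X sites with a level of 20 to 40%, P7 replicate 2 had a mean of 10.6%, P7 replicates 1, 3 and 4 had 32.4, 30.3 and 31.1%, and P90 had 34.2 and 33.4%. These values go against the description of this library as female, and what gave rise to them was not tested. On autosomes it was also the lowest P7 library at sites of intermediate level and the one with the fewest reads, so results are given with and without it.

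**Figure D1:**
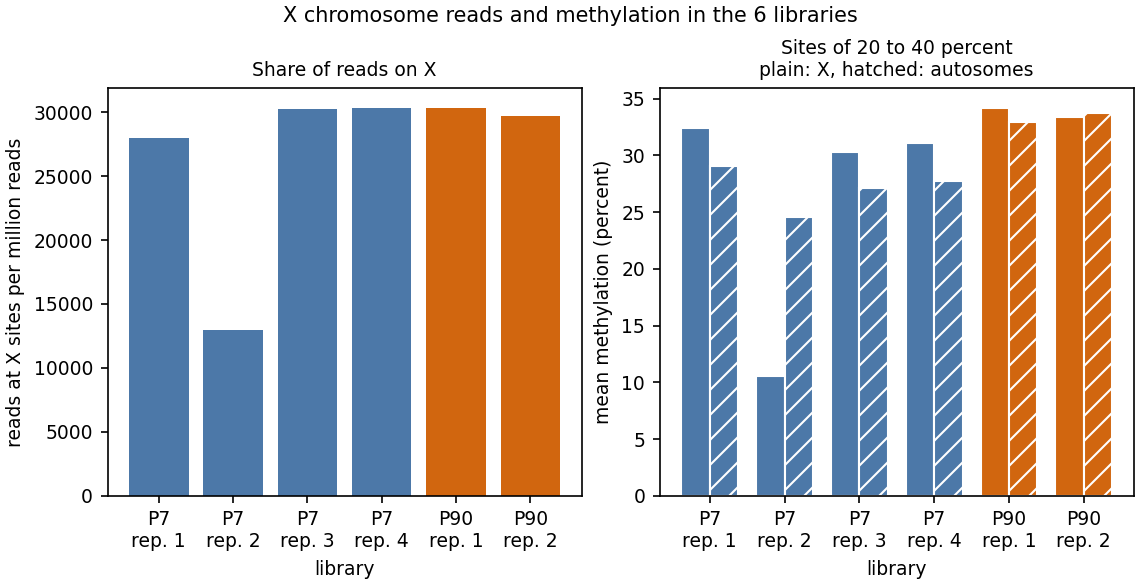
Left, reads at X sites per 1000000 reads in each of the 6 libraries (blue P7, orange P90). Right, mean methylation in percent of sites of the 20 to 40% class on X (plain bars) and on autosomes (hatched bars). P7 replicate 2 is at 12963 reads and 10.6% on X, below the other 5 libraries in both panels.

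Averaged over all sites the adult libraries were little above the neonatal ones. Mean methylation was 75.7, 73.7, 74.5 and 75.0% in P7 replicates 1 to 4 and 75.7 and 75.8% in P90 replicates 1 and 2. P7 replicate 1 equalled P90 replicate 1 to the digits given, and the other P7 libraries were lower. P90 minus P7 was 1.01 points (74.7% ± 0.846, SD, n = 4, against 75.7% ± 0.0424, SD, n = 2, exact permutation p = 0.200). Exact tests here are two-sided over 15 arrangements of the libraries and cannot go below 0.0667. Without P7 replicate 2 the difference was 0.662 points (exact permutation p = 0.200, with 0.1 the smallest possible).

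The difference varied with the level of the site, and was larger than this mean in the classes from 5 to 60%. Sites were grouped by their mean level over both ages, so the classes were set on the values compared. In that mean each P90 library weighs more than each P7 library. Exact p-values within level classes are therefore descriptions, and how far the grouping moved the differences was not tested. In the 20 to 40% class (48353 sites) the P7 libraries had 29.2, 23.9, 27.2 and 27.8% and the P90 libraries 33.0 and 33.7%. Both adult libraries were above every neonatal one, by 6.29 points in the mean and by 5.25 points without P7 replicate 2. The 10 to 20% class went from 12.9% ± 0.869 (SD, n = 4) to 17.2% ± 0.281 (SD, n = 2), and the 5 to 10% class from 6.69% ± 0.174 to 8.51% ± 0.0583. For these 3 classes and for the 95 to 100% class, which went from 96.4% ± 0.139 to 97.2% ± 0.136, the exact permutation p was 0.0667, the smallest possible. At 60 to 80% P90 minus P7 was -0.626 points and at 80 to 90% it was -0.494 points, both less than the SD between P7 libraries (1.51 and 0.649). In those classes the P7 libraries lay on both sides of the P90 libraries with P7 replicate 2 and above them without it, where the differences were -1.24 and -0.732 points (exact permutation p = 0.200 for both). At 40 to 60% the difference was 3.63 points, and 2.58 without P7 replicate 2.

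**Figure D2:**
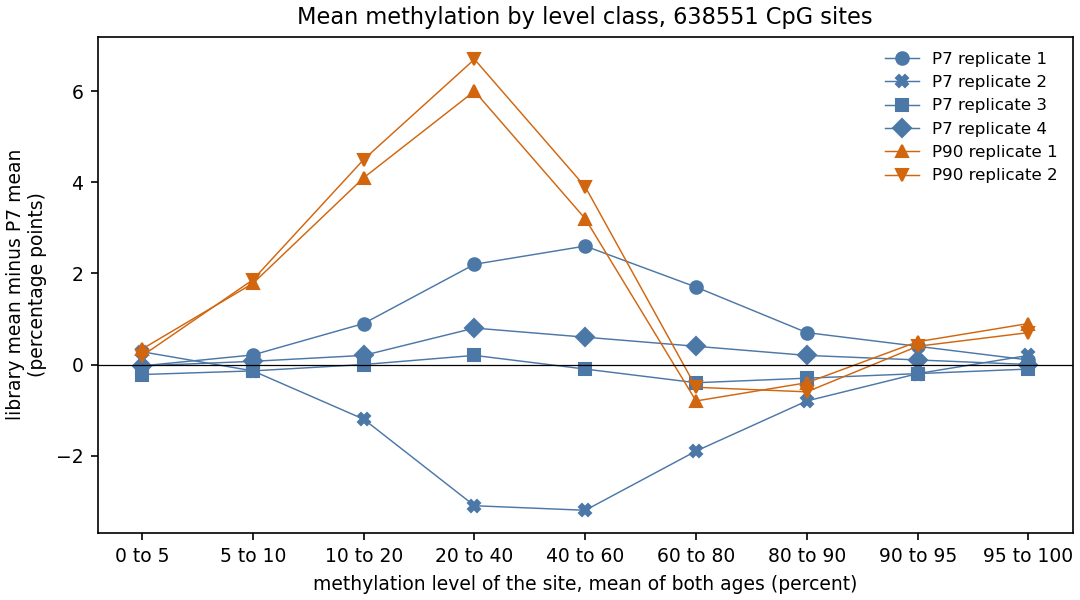
Mean methylation of each library minus the mean of the 4 P7 libraries, in percentage points, by level class of the 638551 sites in percent. The 2 P90 libraries (orange) lie highest at 20 to 40%, at 33.0 and 33.7% against 23.9 to 29.2% in P7, and among or below the P7 libraries (blue) at 60 to 90%.

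Single sites were tested with a logistic model of methylated and unmethylated read counts and called at an adjusted p under 0.05. The spread between libraries was shared over sites, with a median dispersion of 0.988, where 1 is the spread of read sampling alone. At most sites the p-value thus treats reads nearly as replicates and does not measure the spread between libraries at that site. Of 638551 sites, 17050 (2.67%) were higher and 8901 (1.39%) were lower at P90. Sites called higher went from a median of 29.7% to 60%, and sites called lower from 83.8% to 56.8%. The libraries of the 2 ages did not overlap at 16221 of the sites called higher and 8275 of those called lower, and over all sites both P90 libraries were above every P7 library at 12% and below at 8.77%. In the 20 to 40% class 10.8% of sites were called higher and 1.53% lower, and in the 80 to 90% class 0.925% and 1.46%. Leaving out P7 replicate 2 gave 13969 higher and 8160 lower sites, and 77.1% and 79.4% of the calls were kept. Each direction depended more on the P90 libraries, of which there were 2: without P90 replicate 1 the counts were 6718 and 3487, and without P90 replicate 2 they were 5830 and 3210. Across all 6 omissions 2120 sites stayed higher and 1002 stayed lower. Thinning every site to 10 reads left 751 and 482 calls, so at single sites the count of calls follows the depth.

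The 2 strands of a CpG are sequenced separately and were tested apart. Of plus strands called, 37.0% had the minus strand called the same way. At 73860 CpGs with both strands measured, 900 were higher on both strands, 380 were lower on both, and 2 had strands called in opposite directions. The CpG with the largest rise called on both strands lay on chromosome 2 at 185854614 (Rnor_6.0, as are all positions). Its plus strand had 26.7, 29.4, 32.4 and 39.3% at P7 and 93.9 and 86.5% at P90, with 17 to 37 reads. Its minus strand, at 185854615, had 48.5, 33.3, 28.9 and 31.8% at P7 and 94.4 and 90.9% at P90. Both strands were above every P7 library in both adult libraries (adjusted p = 6.80e-10 and 1.46e-07). A call on both strands and no overlap of the ages were conditions of the choice. There were 836 CpGs eligible as rises and 334 as falls. The other 3 named rises were 46.1 and 50.0 points at chromosome 2, 236085503, 48.7 and 45.9 points at chromosome 16, 69096178, and 65.3 and 38.2 points at chromosome 5, 127436485 (plus and minus strand). The minus strand of that last CpG had an adjusted p of 0.0901 without P90 replicate 2, so its call rested on that library.

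Among CpGs that fell, the mean over strands was -56.5 points on chromosome 1 at 188697476, the largest fall. The plus strand there had 87.5, 75.0, 78.8 and 66.7% at P7 and 23.5 and 27.8% at P90, and the minus strand 82.4, 76.9, 90.0 and 76.9% and then 21.4 and 18.4%. On chromosome 17 at 15761691 the plus strand had 95.9, 96.0, 97.6 and 94.9% at P7 and 40.4 and 44.6% at P90, a fall from nearly full methylation that the minus strand shared (95.3, 85.7, 90.9 and 89.7%, then 37.2 and 34.8%). The other 2 falls were on chromosome 15 at 59484614 (-57.9 and -52.6 points, and -59.6 and -59.8 without P7 replicate 2) and on chromosome 10 at 86687236 (-42.9 and -62.4 points). Whether sequence variants lay at these CpGs was not tested.

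Windows of 1 kb, with the reads of at least 3 sites summed, showed the same 2 directions. Of 93827 windows, 7290 (7.77%) were higher and 4682 (4.99%) lower at P90. Higher windows went from a median of 39.7% to 59.0%, and lower windows from 81.8% to 66.6%. The ages did not overlap at 7149 windows called higher and 4489 called lower. Over all windows both P90 libraries were above every P7 library at 18.2% and below at 12.1%. Omitting P7 replicate 2 gave 6671 and 4773 windows, with 87.8% and 89.8% of the calls kept. Without P90 replicate 1 there were 4544 and 2781, and without P90 replicate 2 there were 4340 and 2879. In the test for windows each window's own spread counted as 4 degrees of freedom and the shared spread as 20.4 in the median. In 15174 windows the shared spread counted less, down to 0.2.

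The largest rise among windows with at least 5 sites was on chromosome 19, 60210001 to 60211000 (6 sites, 84 to 160 reads). Its P7 libraries had 23.1, 34.4, 29.8 and 25.5% and its P90 libraries 76.9 and 70.3%. The adult levels were 45.4 points above the neonatal mean (adjusted p = 2.57e-07), and no overlap was a condition of the choice. On chromosome 2, 235533001 to 235534000 (8 sites), the levels were 35.2, 30.2, 42.2 and 46.1% at P7 and 80.3 and 77.2% at P90. The other 4 named rises, on chromosomes 1, 2, 5 and 6, were of 39.9 to 44.6 points. The largest fall was on chromosome 14, 114540001 to 114541000 (5 sites), from 87.9, 78.4, 84.3 and 76.1% to 34.1 and 30.7%. All 12 named windows were called with each library left out in turn (adjusted p of at most 0.00607).

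A pair of the named falls lay close to gene starts that could be placed on these coordinates. Starts were placed by matching the spacing of CpGs in RefSeq promoter sequences of another build (GRCr8) to the CpG positions in the files. Of 33469 promoters 4060 matched, and 99.5% of the matches fell on the chromosome RefSeq gives, which the match had not used. Of those, 94.8% were on the strand RefSeq gives. A stretch of chromosome 10, 86687001 to 86688000, with 13 sites, lay 3.09 kb downstream of the start of Nr1d1 (10 of 19 promoter CpGs matched), which encodes REV-ERB alpha, a repressor of the circadian clock. It holds the CpG at 86687236 and had 83.8, 78.7, 87.4 and 76.6% at P7 and 40.5 and 31.9% at P90, a difference of -45.4 points (adjusted p = 2.90e-08). The 3 sites around the Nr1d1 start itself had 65.7, 51.4, 65.7 and 61.2% at P7 and 46.9 and 64.8% at P90, which overlap. A window of chromosome 7, 11753001 to 11754000, lay 0.587 kb downstream of the start of Oaz1 (11 of 31 CpGs matched), which encodes antizyme, an inhibitor of ornithine decarboxylase. It had 71.1, 69.3, 68.2 and 53.9% at P7 and 25.4 and 27.7% at P90. Both adult libraries were under all neonatal ones, the lowest of which was P7 replicate 4.

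How far a change reached was measured by comparing CpGs at set distances. The change was computed in 2 sets that share no library, P90 replicate 1 minus P7 replicates 1 and 2, and P90 replicate 2 minus P7 replicates 3 and 4. For the same site the 2 sets correlated at r = 0.395, which is a description over 638551 sites of the same libraries and carries no p. The strands of 1 CpG correlated at 0.397, as much as a site with itself. Different CpGs 2 to 4 bp apart had r = 0.35, those 100 to 200 bp apart 0.288, those 500 to 1000 bp apart 0.124 and those 1000 to 2000 bp apart 0.0785. The likeness was 0.0258 at 10000 to 50000 bp, 0.00493 at 100000 to 1000000 bp and -0.000851 between chromosomes. Among these classes r fell most between 100 and 1000 bp. With P7 replicate 2 omitted the values were 0.32 at 2 to 4 bp, 0.266 at 100 to 200 bp and 0.114 at 500 to 1000 bp. Taking off the mean change of sites of the same level gave 0.256 at 100 to 200 bp, and a minimum of 20 reads gave 0.365.

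**Figure D3:**
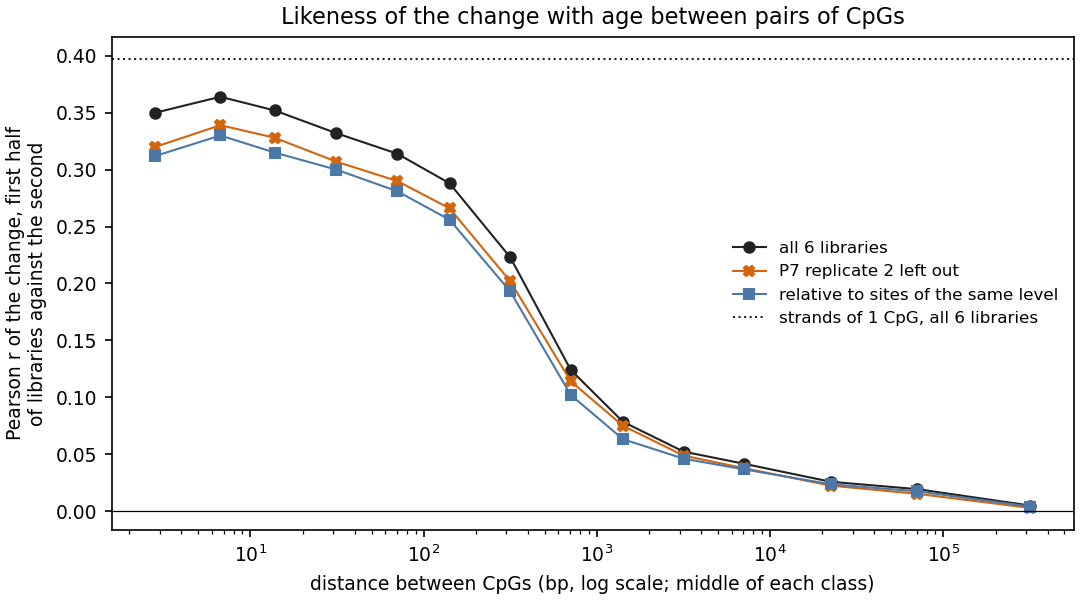
Pearson r between the change of 1 CpG in the first set of libraries and of another CpG in the second set, by distance in bp on a log axis. The dotted line is the value for the 2 strands of 1 CpG (0.397). With all 6 libraries r goes from 0.35 at 2 to 4 bp to 0.124 at 500 to 1000 bp and 0.00493 at 100 kb to 1 Mb, and the other 2 lines follow the same course.

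The covariance of the change between the 2 sets was also lower in wider features. Between different sites of the same 100 bp it was 85.7% of that for a site with itself. It was 75.8% within 1 kb, 51.9% within 10 kb, 17.9% within 100 kb and 4.32% within 1 Mb. Sites alone in their feature enter only the single-site value, and at 100 bp 474268 of 637529 sites had a neighbour. Neighbouring windows behaved alike. Of windows next to one called higher, 33.0% were called higher and 1.79% lower, and next to one called lower 20.8% were called lower and 3.29% higher. Of windows more than 100 and up to 1000 kb away from one called higher, 8.72% were called higher, close to the 7.77% of all windows. Few called windows had a tested window beside them: there were 2453 such pairs for the 7290 higher windows and 1338 for the 4682 lower ones, which limits the runs that can be seen. In these data 6507 higher and 4411 lower windows stood alone, 18 higher and 7 lower runs had 3 windows, and 3 and 1 higher runs had 4 and 5 windows. The longest, of 5 windows and 68 sites, was on chromosome 19, 25897001 to 25902000, with 14.0, 14.1, 13.3 and 14.8% at P7 and 26.2 and 23.8% at P90. On chromosome 5, 149365001 to 149369000, a run of 4 windows had 43.0, 37.6, 40 and 45.2% at P7 and 61.4 and 67.5% at P90. In the 4 longest runs, all of them higher, the 2 ages did not overlap. Their windows were called higher on these same libraries, so this follows in large part from the choice. Of the 7290 windows called higher, 7149 had no overlap.

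In place of CpG density, the distance from a site to the nearest other measured CpG was used. CpGs with too few reads, or not listed for want of a methylated read, do not count in it. A site far from a measured CpG can therefore lie close to unmeasured ones. Sites under 5 bp from their neighbour (58843 sites) had 72.3, 70.6, 71.6 and 72.0% at P7 and 73.3 and 73.1% at P90. Both adult libraries were above the neonatal ones there, by 1.58 points (1.25 without P7 replicate 2). In the other 6 classes of distance the difference was 0.875 to 1.03 points, and P7 replicate 1 was close to or above the P90 libraries. The difference between the closest class and sites 500 bp or more from a neighbour was larger at P90 by 0.611 points (exact permutation p = 0.133). It was 0.637 without P7 replicate 2 (exact p = 0.200), 0.433 without P7 replicate 1 and 0.375 without P90 replicate 1. With a minimum of 20 reads it was 1.37 points. Sites called higher made up 3.12% of the closest class and 1.41% of the farthest, and sites called lower 1.33% and 0.745%. The farthest class had fewer reads per site (median 25.3 against 32.3), and the part of depth in these shares was not tested.

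Within level classes, sites close to another measured CpG (dense) and far from one (sparse) differed at low levels. CpGs without a methylated read are not listed, so sparse sites of low level can lie in CpG-rich sequence. Among sites of 0 to 20%, those under 10 bp from a neighbour (11800 sites) had 10.8, 9.58, 10.2 and 10.6% at P7 and 14.0 and 14.2% at P90, a difference of 3.78 points. Those 500 bp or more away (2390 sites) had 9.72, 8.48, 8.82 and 8.75% at P7 and 10.5 and 10.6% at P90, a difference of 1.56 points. The classes between had 3.29 and 2.63 points. Dense minus sparse sites was higher at P90 by 2.22 points in this class and 2.06 points at 20 to 40%, and both had the smallest exact permutation p, 0.0667. Without P7 replicate 2 these differences were 2.14 and 1.92 points (exact p = 0.1 and 0.200). At 60 to 80% and at 80 to 100% dense minus sparse changed by -0.601 and -0.294 points (exact permutation p = 0.400 and 0.267). These classes were set on both ages, so the p-values only describe. They also do not hold level fixed: at 0 to 20% dense sites had 10.3% and sparse sites 8.94% at P7. Over all sites the difference went from 0.266 points at 0 to 5% to 4.29 points at 10 to 20%. The part of level in the 2.22 points was not tested.

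At the start of genes, regions 1 kb either side of a matched start with at least 3 sites were tested. Of 1133 regions 91 (8.03%) were higher and 10 (0.883%) lower, and the median change over all of them was 1.85 points. Among all 1 kb windows, which are narrower, 7.77% were higher and 4.99% lower, so the share of rises was close to that of windows at large. Of the calls 90.1% were higher. limma on mean percent over sites called 86 and 11 regions (88.7% higher), and 63 and 14 (81.8%) with the mean of each library taken off. limma on the log2 ratio of counts called 43 and 4, Fisher's exact test on pooled counts 256 and 41, and the 4 libraries with titles 3 and 4 gave 4 and 0. Counts moved with the libraries: without P7 replicate 1 there were 55 and 4, without P7 replicate 2 there were 74 and 9, without P7 replicate 3 there were 50 and 5, and without P90 replicates 1 and 2 there were 40 and 3 and then 24 and 3. In all 6 omissions 14 regions stayed higher and 1 lower, and these, chosen after their values were seen, are described first. The 14 that rose had 5.54% to 39.2% at P7.

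The largest change was at Fam78a on chromosome 3, 11101755 to 11103755 (10 sites, 365 to 656 reads). Its P7 libraries had 41.2, 39.7, 40.1 and 35.9% and its P90 libraries 65.5 and 73.7%, 30.4 points higher (adjusted p = 0.000257). Snai1, which encodes a zinc finger repressor of epithelial genes, had 38.9, 34.8, 42.7 and 39.4% at P7 and 60.6 and 61.1% at P90 over 19 sites (adjusted p = 0.000656). The adult libraries were well above the neonatal ones at both genes, and the 2 P90 libraries of Snai1 differed by less than the P7 libraries did. Vsig10, which encodes a protein with immunoglobulin domains, had 13.0, 8.39, 8.39 and 13.8% at P7 and 26.9 and 34.2% at P90. At B3gnt7, a glycosyltransferase gene, the levels were 3.53, 6.43, 8.22 and 4.00% at P7 and 19.2 and 25.6% at P90, the lowest neonatal mean of the 14. Abhd15, Prom2, which encodes a membrane protein of the prominin family, and the uncharacterized LOC120101515 rose by 17.6, 16.7 and 19.8 points. Pygl, the liver form of glycogen phosphorylase, rose by 16.6 points. Mfge8, whose secreted product bridges dying cells and phagocytes, rose from 14.1% ± 1.58 (SD, n = 4) to 28.0% ± 1.25 (SD, n = 2).

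The 2 T-box transcription factor genes among them act in embryonic patterning. Tbx1 had 26.6, 29.4, 28.5 and 26.5% at P7 and 42.9 and 45.5% at P90 over 26 sites (adjusted p = 0.00225). Tbx4 had 13.3, 12, 14.3 and 12.7% at P7 and 28.3 and 23.6% at P90 over 18 sites (adjusted p = 0.00377). Pomc encodes the precursor of ACTH, melanocyte-stimulating hormones and beta-endorphin. Its start region had 7.02, 8.99, 10.9 and 8.92% at P7 and 20.2 and 21.2% at P90 over 15 sites (adjusted p = 0.00316). At all 3 genes both adult libraries were above all neonatal ones. Myo5c, a class V myosin gene, rose by 15.5 points, and Rbpms2, which encodes an RNA-binding protein, by 12.5 points. The 1 region that fell in every omission was that of Rpl37al1, named for its likeness to a ribosomal protein gene, with 94.5, 92.2, 89.6 and 89.7% at P7 and 74.1 and 81.8% at P90 (adjusted p = 0.00415, and 0.0498 at the most with a library left out). Whether reads of near-identical copies were placed there was not tested.

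**Figure D4:**
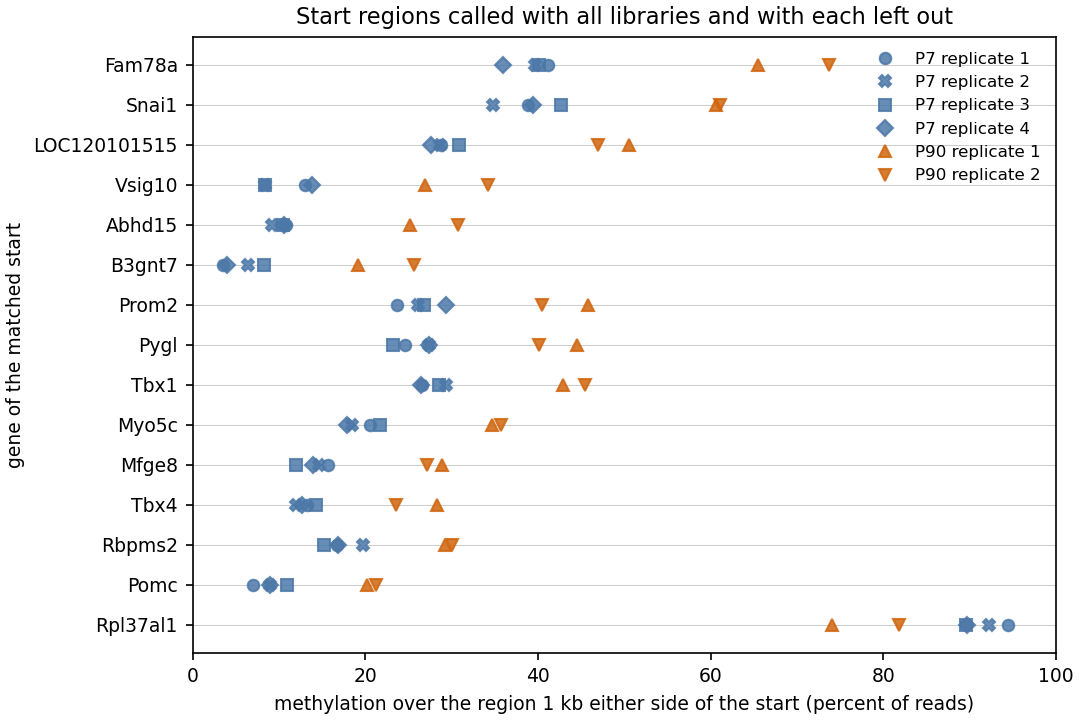
Methylation in percent of reads over the region 1 kb either side of the start of 15 genes, for the 4 P7 libraries (blue) and the 2 P90 libraries (orange). In each row the 2 ages do not overlap: 14 regions are higher at P90, from 30.4 points at Fam78a to 11.7 points at Pomc, and Rpl37al1 is lower.

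At 6 of these genes at least 4 CpGs of the 250 bases before the start were measured, and the sequences show where they lie. They are RefSeq sequences of GRCr8, 5′ to 3′ on the gene's strand and ending at the base before the start, with the measured CpGs in capitals. The positions given are those of the match on Rnor_6.0.
Pomc, chr6:28382699-28382948, plus strand: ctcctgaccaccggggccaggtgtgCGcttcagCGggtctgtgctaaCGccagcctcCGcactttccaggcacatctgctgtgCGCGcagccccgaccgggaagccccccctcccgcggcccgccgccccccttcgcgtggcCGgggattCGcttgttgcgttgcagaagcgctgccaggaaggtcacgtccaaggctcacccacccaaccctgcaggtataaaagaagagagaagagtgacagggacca
Tbx1, chr11:86553566-86553815, plus strand: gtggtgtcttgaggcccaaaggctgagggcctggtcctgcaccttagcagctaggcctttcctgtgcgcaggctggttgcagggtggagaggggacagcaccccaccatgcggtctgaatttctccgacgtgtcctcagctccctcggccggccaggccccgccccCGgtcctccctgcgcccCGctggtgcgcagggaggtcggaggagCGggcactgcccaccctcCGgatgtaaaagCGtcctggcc
Tbx4, chr10:73332869-73333118, plus strand: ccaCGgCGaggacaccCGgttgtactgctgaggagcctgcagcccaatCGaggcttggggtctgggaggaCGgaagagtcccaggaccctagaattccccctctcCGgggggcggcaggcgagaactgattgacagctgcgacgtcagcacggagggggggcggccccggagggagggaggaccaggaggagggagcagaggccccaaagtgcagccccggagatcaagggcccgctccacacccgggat
Myo5c, chr8:82171227-82171476, plus strand: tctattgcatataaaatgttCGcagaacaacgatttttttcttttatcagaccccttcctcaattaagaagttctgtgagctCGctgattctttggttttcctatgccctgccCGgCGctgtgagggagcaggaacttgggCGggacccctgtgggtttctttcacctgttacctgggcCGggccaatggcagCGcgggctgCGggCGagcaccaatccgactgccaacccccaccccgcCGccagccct
Rbpms2, chr8:71167055-71167304, plus strand: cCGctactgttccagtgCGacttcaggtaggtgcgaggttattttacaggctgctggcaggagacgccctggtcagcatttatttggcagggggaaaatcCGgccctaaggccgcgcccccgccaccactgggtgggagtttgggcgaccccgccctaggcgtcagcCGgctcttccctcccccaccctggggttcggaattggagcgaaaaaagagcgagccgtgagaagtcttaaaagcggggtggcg
Rpl37al1, chr10:55741303-55741552, minus strand: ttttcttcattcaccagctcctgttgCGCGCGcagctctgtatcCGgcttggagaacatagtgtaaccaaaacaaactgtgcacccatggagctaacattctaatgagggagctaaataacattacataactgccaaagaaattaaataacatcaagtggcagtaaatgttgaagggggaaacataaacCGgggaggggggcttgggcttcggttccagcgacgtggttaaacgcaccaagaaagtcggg

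In the Pomc sequence 8 of 20 CpGs were measured and 7 of them had a higher mean at P90. Positions are counted from the start, the base before it being -1. The CpG at -193 changed most, with 6.48, 5.51, 14.0 and 11.7% at P7 and 29.7 and 32.4% at P90. The CpG at -108 went the other way, by -3.64 points. In the Tbx1 sequence all 5 measured CpGs had a higher mean at P90, and neighbours differed widely. The CpG at -40 had 29.3, 23.0, 14.2 and 20% at P7 and 58.9 and 49% at P90. The CpG at -84 had 92.1% to 100% in every library. At Tbx4 the 5 CpGs from -247 to -180 were 9.17 to 17.6 points higher, and the CpG at -145 differed by -0.974 points. All 10 measured CpGs of Myo5c were higher, by 3.31 to 29.4 points, and the 4 of Rbpms2 by 2.11 to 11.3 points. The 5 CpGs of Rpl37al1 were all lower, by -18.1 to -22.8 points. CpGs of 1 sequence are often read on the same molecules and are not independent. The regions were chosen as called higher or lower on these reads, so the directions follow in part from the choice.

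Other start regions with large changes were less stable. Smagp rose by 24.6 points, and its adjusted p was 0.0536 without P90 replicate 2. Timm23, which encodes a subunit of the mitochondrial import channel, rose by 19.3 points but was not called without either P90 library. Mgarp, Fam83g, Chst8 and B4galt1 rose by 22.4, 18.9, 18.8 and 18.1 points, and none kept its call in every omission. Mgarp lost it without any of the P7 libraries or P90 replicate 2, Fam83g without either P90 library, Chst8 without P90 replicate 2, and B4galt1 without P7 replicate 1 or 3 or either P90 library. The endophilin gene Sh3gl1 differed by -10.2 points and Nudt22 by -8.74 points, calls lost in all omissions but that of P7 replicate 2 for Sh3gl1 and in all 6 for Nudt22. LOC103691053 had the largest fall of the start regions called lower, -20.1 points, and was not called without P90 replicate 2 (adjusted p = 0.0957).

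Lists of genes known from brain development could be read only in part, since few of their starts were matched and covered. Of 8 genes of the methylation machinery 1 was matched. This was Tet3, which encodes a methylcytosine dioxygenase, with 2 starts. The start on chromosome 4 at 115155694 to 115157694 had 32.8, 30.6, 27.3 and 34.4% at P7 and 39.0 and 50.0% at P90 (adjusted p = 0.0371). This call was lost without P7 replicate 1, 2 or 3 or P90 replicate 2, with an adjusted p of 0.0668 without P7 replicate 2 and 0.466 at the most. The other Tet3 start had 34.2% ± 3.14 (SD, n = 4) and 33.2% ± 3.97 (SD, n = 2). Of the myelin list 1 of 10 genes was tested, Cldn11, a claudin of the myelin sheath, with 72.0, 73.8, 66.2 and 68.8% at P7 and 62.3 and 62.1% at P90. The adult libraries were under the neonatal ones, but the difference of -7.97 points did not pass (adjusted p = 0.172). Hes5, a Notch target of neural progenitors, went from 8.52% ± 1.95 to 13.7% ± 4.52 (adjusted p = 0.251). The imprinted genes Igf2r and Peg10 changed by 2.96 and 5.40 points, and Hoxd10 and Pcdhgc3 by 2.01 and 1.09 points, none of which passed. No gene of the synapse list or the stress list was tested.

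In bins of 100 kb most calls were higher. Of 9981 bins with at least 20 sites 2184 (21.9%) were higher and 539 (5.40%) lower at P90. Without P7 replicate 2 there were 2052 and 619, without P90 replicate 1 there were 1296 and 253, and without P90 replicate 2 there were 1127 and 258. The bins moved by a few points, with medians of 6.85 and -5.40 among those called. Of the higher bins 85.9% had a 1 kb window called higher, and of the lower bins 89.8% had one called lower, against 28.8% and 30% of the bins not called. Of the windows in higher bins 20.5% were called higher and of those in lower bins 23.4% lower, so most windows of a called bin were not called. The bin with the largest rise was on chromosome 2, 185800001 to 185900000 (48 sites), with 26.7, 24.4, 30 and 30.8% at P7 and 52.0 and 56.4% at P90, and it holds the CpG with the largest rise. On chromosome 1, 218300001 to 218400000 (78 sites), 5 of 7 windows were higher, and the bin went from 49.5% ± 1.30 (SD, n = 4) to 71.0% ± 1.5 (SD, n = 2). The other 3 named bins rose by 21.1 to 23.4 points.

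The largest fall of a 100 kb bin was on chromosome 1, 240900001 to 241000000 (28 sites), which holds the start of Klf9. Klf9 encodes a zinc finger transcription factor that thyroid hormone and glucocorticoids induce in neurons. The bin had 75.2, 65.7, 67.9 and 68.0% at P7 and 40.9 and 43.6% at P90, -27.0 points (adjusted p = 9.39e-09), and 2 of its 3 windows were called lower. Every adult value lay more than 20 points under every neonatal one. On chromosome 2, 188000001 to 188100000, 39.7 kb from the start of Gon4l, the levels were 73.2, 69.9, 69.6 and 69.1% at P7 and 46.2 and 45.4% at P90. The bin at 22200001 to 22300000 of that chromosome, 4.49 kb from the start of Serinc5, fell by 19.9 points. Those on chromosomes 16 and 12 fell by 16.7 and 15.3 points. All 10 named 100 kb bins were called with each library left out.

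Most calls in bins of 1 Mb were higher, and most bins were not called. Of 2189 bins with at least 50 sites 742 (33.9%) were higher and 28 (1.28%) lower, and the median change over all bins was 1.93 points. Without P7 replicate 2 there were 678 and 36, without P90 replicate 1 there were 394 and 8, and without P90 replicate 2 there were 371 and 6. The p-values at this scale rest on a spread shared over bins, except in 188 bins whose own spread stood apart and weighs more. Inside the 742 higher bins 11.9% of the 1 kb windows were called higher and 3.42% lower, against 5.71% and 5.96% in bins not called, so most windows of a higher bin were not called.

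The split of calls into higher and lower differed between tests. Among all calls 65.7% were higher at sites, 60.9% in windows, 80.2% in 100 kb bins and 96.4% in 1 Mb bins. When the mean percent over sites was taken in each feature and the mean of the library over all sites subtracted, limma called 3485 higher and 3106 lower windows, a share of 52.9%. The same test gave 1123 and 1114 bins of 100 kb (50.2%) and 263 and 265 bins of 1 Mb (49.8%). The subtraction centres the changes near 0, so a near-equal split follows from it and says nothing of the direction of change. Without the subtraction this test gave 377 and 42 bins of 1 Mb; it differs from the logistic test in both the weighting of reads and the model, and which of them moved the counts was not tested.

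**Figure D5:**
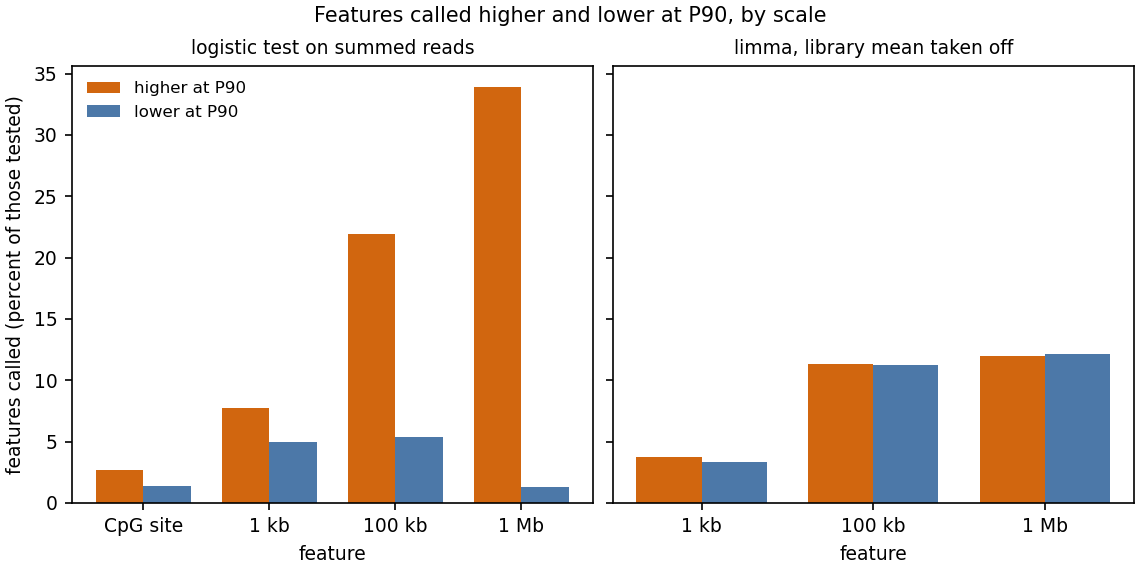
Share of features called higher (orange) and lower (blue) at P90, in percent of those tested, for CpG sites and for windows or bins of 1 kb, 100 kb and 1 Mb. Left, the logistic test on summed reads, with 33.9% and 1.28% of 1 Mb bins. Right, limma on mean percent with the mean of each library taken off, with 263 higher and 265 lower 1 Mb bins.

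Among 1 Mb bins the largest rise on an autosome was on chromosome 3, 43000001 to 44000000 (181 sites), with 47.5, 50.2, 47.7 and 50.1% at P7 and 63.1 and 63.8% at P90. On chromosome 1, 131000001 to 132000000 (259 sites), 13 of 33 windows were higher, and the bin had 36.5, 35.7, 35.8 and 39.2% at P7 and 50.6 and 48.8% at P90. A bin on chromosome 1 at 232000001 to 233000000 was 12.7 points higher. Named bins were chosen among those without overlap between ages, and over all 1 Mb bins both P90 libraries were above every P7 library in 48.1%. The bin on X at 145000001 to 146000000 (64 sites) had 23.8, 20.6, 27.8 and 29.4% and then 39.2 and 41.8%, 15.1 points higher and 13.5 points higher without P7 replicate 2. A further named bin, on chromosome 1 at 11000001 to 12000000, held 461524 to 1074823 reads per library, of which 97.1% lay at 259 of its 455 sites with extreme coverage. It had 7.67, 13.3, 4.45 and 9.39% at P7 and 13.9 and 27.7% at P90 and was not called without P7 replicate 1 or without P90 replicate 2. The remaining 196 sites of that bin had 26.4, 44.0, 25.3 and 35.8% at P7 and 35.9 and 45.5% at P90, which overlap.

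The largest fall of a 1 Mb bin, -6.05 points on chromosome 1 at 240000001 to 241000000 (77.7, 74.6, 77.2 and 78%, then 70.1 and 71.6%), was in the bin around Klf9. It was the 1 lower bin of 28 that was called in every omission. The bin of chromosome 8 at 99000001 to 100000000, which holds the start of the lysyl hydroxylase gene Plod2, fell by 4.17 points and had an adjusted p of 0.0570 without P90 replicate 2. The other 3 named falls, of -4.05 to -3.42 points on chromosomes 7, 11 and 16, were also lost without P90 replicate 2, that on 7 without P7 replicate 1 and that on 16 without P90 replicate 1 as well.

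Along the genome the change varied little. The mean over the sites of each autosome was higher at P90 on all 20, by 0.388 to 1.28 points, and on none did the exact permutation p go under 0.133. Chromosome 3 had the highest mean change of the autosomes (74.0, 72.0, 72.7 and 73.3%, then 74.3 and 74.3%) and chromosome 15 the next (1.25 points). Chromosome 20 had the lowest (76.7, 74.8, 75.5 and 75.9%, then 76.0 and 76.2%), followed by chromosome 12 (0.579 points). These 4 changes were 0.933, 0.973, 0.0730 and 0.257 points without P7 replicate 2. The SD between P7 libraries on these chromosomes was 0.716 to 0.872 points. Within 5 Mb of either end of the measured span autosomal sites were 1.07 points higher at P90 and between the ends 0.976 points, a difference of 0.0978 points (exact permutation p = 0.400). Over 10 equal parts of the span of each autosome the difference was 0.759 to 1.20 points, highest in the last part.

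On X the comparison depended on P7 replicate 2. The 10588 X sites had 68.7, 62.1, 67.5 and 68.0% at P7 and 69.5 and 69.0% at P90. P90 minus P7 was 2.66 points with P7 replicate 2 and 1.16 points without it, against 0.984 and 0.654 points on autosomes. The difference between X and autosomes was 1.68 points (exact permutation p = 0.400), and without P7 replicate 2 it was 0.508 points (exact permutation p = 0.1, the smallest for 3 against 2). X minus autosomes was -7.08, -7.16 and -7.12 points in P7 replicates 1, 3 and 4, -11.8 points in P7 replicate 2, and -6.31 and -6.91 points at P90, so both adult libraries were above all neonatal ones. Where sites were chosen from the other 5 libraries, 25101 X sites had 58.7, 57.3 and 57.9% at P7 and 59.8 and 59.3% at P90, 1.63 points higher.

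Shares of calls on X, whose difference from autosomes was not tested, varied with the scale. Of 1399 windows on X 2.50% were higher and 0.357% lower, against 7.85% and 5.07% of 92278 on autosomes. These shares were, without P7 replicate 2, 2.57% and 0.357%, and 7.18% and 5.16%. Of 115 bins of 100 kb on X 16 (13.9%) were higher and 0 lower, against 22.0% and 5.47% on autosomes. Without P7 replicate 2, 27 (23.5%) were higher and 0 lower, against 20.5% and 6.28%. Of 77 bins of 1 Mb 31 (40.3%) were higher and 0 lower, against 33.7% and 1.33% on autosomes. Without P7 replicate 2, 42 (54.5%) were higher and 0 lower, against 30.1% and 1.70%. Among X sites of 0 to 20% the 3 other P7 libraries had 16.5, 14.6 and 15.1% and the P90 libraries 15.8 and 16.0%, which overlap. On autosomes the same class had 10.7, 10.1 and 10.3% in those P7 libraries and 13.3 and 13.5% at P90. At 40 to 60% X sites had 50.3, 48.7 and 48.2% in those P7 libraries and 53.2 and 52.7% at P90, which do not overlap, 3.85 points against 2.56 on autosomes (exact permutation p = 0.1 for X and 0.200 for autosomes). Level classes were set on both ages here too, so these p-values only describe.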

How the data were processed

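Reduced representation bisulfite libraries of amygdala DNA, made with the Ovation RRBS kit of NuGEN per the labels' protocols, were deposited as CpG tables, 1 per library. Their values are counts of methylated and unmethylated reads per cytosine, deposited by the authors without normalization. The positions are on Rnor 6.0, per the submitters' processing notes. Aligner settings and read filters were not given in the sources used here. Every listed site has at least 1 methylated read, so sites without one are not analysed here.

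Sites with 10 reads in all 6 libraries were used singly and summed in windows of 1 kb (at least 3 sites) and bins of 100 kb (20) and 1 Mb (50). Each feature was fitted by a logistic model of age, its dispersion moderated with limma 3.58.1 in R 4.3.3 and never below 1, and called at a Benjamini-Hochberg adjusted p under 0.05. Each feature's own spread had 4 degrees of freedom. The shared spread had a median of 20.4 for windows, 21.9 for 100 kb bins and 8.72 for start regions. For most sites and 1 Mb bins its estimate was infinite, so those p-values rest on the shared spread. Under the median, and so weighted more to their own spread, were 13015 sites, 15174 windows, 1104 bins of 100 kb, 188 bins of 1 Mb and 161 start regions. Means were compared by exact permutation over libraries. The test was checked on simulated counts of 1 kb windows, where the false share among calls was above the threshold. No change under 10 points was simulated, and sites and bins were not checked in this way. Whether duplicate reads were removed is not stated, so reads can be copies of 1 molecule.

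The comparison, the gene lists and the alternatives (edgeR 4.0.16, limma, Fisher's exact test, other minimums, each library left out) were chosen with earlier results of these data known. Named features are the largest called differences without overlap: 4 CpGs called on both strands, 6 windows of at least 5 sites and 5 bins of each size per direction, and the 4 longest runs. No Rnor 6.0 annotation was used here, so gene starts come from the match by CpG spacing, and genes are named only where it succeeded.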

Additional observations from a re-analysis of the deposited data

Results flagged for a closer look

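Among 116 values examined within the 4 P7 libraries, 5 had 1 library far from the other 3, and chance alone flags about 1 group in 20. In 4 of the 5 it was P7 replicate 2. Its X minus autosomes difference was -11.8 points, where the other 3 had -7.08, -7.16 and -7.12, and its reads at X sites were 12963 per 1000000, where they had 27970, 30267 and 30311. At the minus strand of the CpG on chromosome 15 at 59484615 it had 55.6%, against 84.4, 83.9 and 85.2%. In the 100 kb bin of chromosome 12 at 40300001 it had 75.6%, against 79.7, 80.1 and 79.8%. P7 replicate 4 had 53.9% in the 1 kb window of chromosome 7 at 11753001, next to the Oaz1 start, against 71.1, 69.3 and 68.2%. All P90 libraries were below these values at the 3 loci.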

How the results depend on the processing

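The numbers of calls are given as higher and lower. Leaving out 1 library at a time gave 5830 to 15190 and 3210 to 8160 sites, 4340 to 7249 and 2781 to 4773 windows of 1 kb, 1127 to 2672 and 253 to 619 bins of 100 kb, and 371 to 1017 and 6 to 36 bins of 1 Mb, the fewest without a P90 library. edgeR called 9424 and 4332 sites. limma on the log2 ratio of counts called 5090 and 1638 sites and 3829 and 1729 windows. Fisher's exact test on pooled counts leaves out the spread between libraries. It called 19769 and 10522 sites, not far above the 17050 and 8901 of the logistic test. At wider scales it called 13504 and 9495 windows, 4328 and 1474 bins of 100 kb and 1468 and 176 of 1 Mb. limma on mean percent over sites called 3733 and 2197 windows, 1352 higher bins of 100 kb and 377 higher of 1 Mb. With the library mean taken off it called 3485 and 3106, 1123 and 1114, and 263 and 265. Thinning to 10 reads left 751 and 482 sites, 3004 and 1647 windows, 1006 and 339 bins of 100 kb and 306 higher bins of 1 Mb. A minimum of 20 reads left 2536 lower windows, 254 lower bins of 100 kb and 16 of 1 Mb, and gave a spacing difference of 1.37 points (0.375 to 0.848 with a library left out). More sites per feature left 4555 and 2780, 1153 and 228, and 455 and 6. A difference of at least 10 points left 339 and 28 bins of 100 kb and 16 and 0 of 1 Mb. Apart from omission, thinning and stricter minimums, the cause of these moves was not tested.

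The replicate numbers 3 and 4 in the titles occur at both ages, but the labels do not say that they pair animals, and over 92278 windows the deviations correlated at r = -0.039. With the replicate block on those 4 libraries there were 0 and 0 sites, 5759 and 3417 windows, 1148 and 227 bins of 100 kb and 218 and 3 of 1 Mb, and 68 and 3 start regions. The same 4 libraries without the block gave 6539 and 3031 sites, 4466 and 2680 windows, 1054 and 237 bins of 100 kb and 358 and 8 of 1 Mb, and 4 and 0 start regions. Of 48 named features 6 lost their call without at least 1 library and 0 changed sign. At 21 to 39 reads per site, depth limits single sites most.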

Other observations

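At 10 mitochondrial sites the levels were 0.305, 0.292, 0.332 and 0.312% at P7 and 0.275 and 0.283% at P90, and sites without a methylated read are not listed. At 306 sites under 5% with 100 reads or more in all 6 libraries they were 2.42, 1.92, 1.76 and 1.98% at P7 and 2.92 and 2.59% at P90, with both adult libraries higher. Among the start regions called lower, that of Pced1b had 44.1, 29.6, 39.5 and 29.2% at P7 and 21.8 and 18.6% at P90, and that of Spats1 18.3, 21.7, 17.6 and 19.8% and then 10 and 11.7%, calls that were lost in 4 and in all 6 omissions of a library.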
